A study of Mus musculus with 15 samples.

Results

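A group of 10 PIWI and Tudor genes of the piRNA pathway is described here across the derivation of mouse primordial germ cell-like cells (PGCLCs). The 10 genes are 3 PIWI genes (*Piwil1*, *Piwil2* and *Piwil4*) and 7 Tudor genes (*Tdrd1*, *Tdrd5*, *Tdrd6*, *Tdrd7*, *Tdrd9*, *Tdrd12* and *Tdrkh*). They were taken by symbol from a list chosen with earlier results of these data known. Each matched 1 of the 55536 genes in the count table. RNA-seq was performed on 15 samples in 5 groups of 3 replicates, namely naive ESCs, EpiLCs and PGCLCs at day 2, 4 and 6 of induction (D2PGCLC, D4PGCLC and D6PGCLC). All 15 samples, the ESCs and EpiLCs included, carried doxycycline-inducible *Prdm1*, *Prdm14*, *Tfap2c* and *Nanog* transgenes in a Stella-eGFP reporter ESC line, in which the 4 factors (4TF) stand in for the cytokines that otherwise induce PGCLCs. The ESCs were grown with 1 µM PD0325901, 3 µM CHIR99021 and 1000 U/ml LIF. EpiLCs, the epiblast-like intermediate, were taken after 48 h in 20 ng/ml Activin A, 12 ng/ml bFGF and 1% KSR. PGCLCs were aggregates made from EpiLCs in medium with 15% KSR and 2 µg/ml doxycycline, and their RNA came from Stella-eGFP+ cells. The transgenic ESCs were drug-selected clones, and how many clones the libraries came from is not given in the sources used here. Nothing states that the replicates were separate inductions, so the p-values measure only the spread between these samples.

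PIWI proteins are the germline branch of the Argonaute family. They bind piRNAs, small RNAs that guide them to transposon transcripts, which are cleaved, or to transposon loci, which become DNA-methylated in fetal male germ cells. The Tudor proteins of this pathway recognise methylated arginines at the ends of PIWI proteins. They hold PIWI proteins in perinuclear granules with the enzymes that make piRNAs. The PIWI proteins and the Tudor proteins of this pathway are known mainly from fetal and adult testis.

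Total counts ran from 22555021 to 42725681 per library. The library of D6PGCLC replicate 1 stood apart in having 18061 genes with at least 1 count, against 21103 to 24343 in the other 14. The naive ESC, EpiLC and PGC marker lists were each highest in the group of that name, with summed levels of 2063 to 2131 CPM (counts per 1000000, on TMM-scaled library sizes) for 5 naive genes in ESCs, 2815 to 3046 CPM for 5 EpiLC genes in EpiLCs and 820.1 to 1023 CPM for 6 PGC genes in the PGCLCs, against at most 233.9 CPM for the PGC genes in ESCs and EpiLCs. The PGC sum cannot be told apart from the design, since *Prdm1* and *Tfap2c* are also transgenes and *Dppa3* (Stella) is the gene whose reporter was used for sorting. How far the design set the sum was not tested. *Prdm1* was lower in D6PGCLCs (59.6 CPM) than in EpiLCs (71.6 CPM). The other 3 PGC genes (*Nanos3*, *Dnd1* and *Itgb3*), split off after the values were seen, summed to 152.2 to 228.7 CPM in the PGCLCs and at most 22.2 CPM in ESCs and EpiLCs.

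Most of the 10 genes were higher in D6PGCLCs than in ESCs, but by different routes. *Piwil2*, *Tdrd7* and *Tdrkh* had ascending mean levels at every stage. *Piwil1*, *Piwil4* and *Tdrd1* were high in EpiLCs and fell in D2PGCLCs, after which *Piwil4* and *Tdrd1* rose by D6PGCLC and *Piwil1* did not pass the test. *Tdrd5* had its highest levels in D2PGCLCs and D4PGCLCs, which were not separated, and *Tdrd9* reached its highest level at D6PGCLC. *Tdrd12*, the member with the most reads, fell from EpiLCs to D6PGCLCs. *Tdrd6* stayed at 13 counts or fewer in all libraries and was not tested in the main fit, which filtered low counts. In bulk RNA, fewer cells expressing a gene and less RNA of it per cell cannot be told apart.

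**Figure D1:**
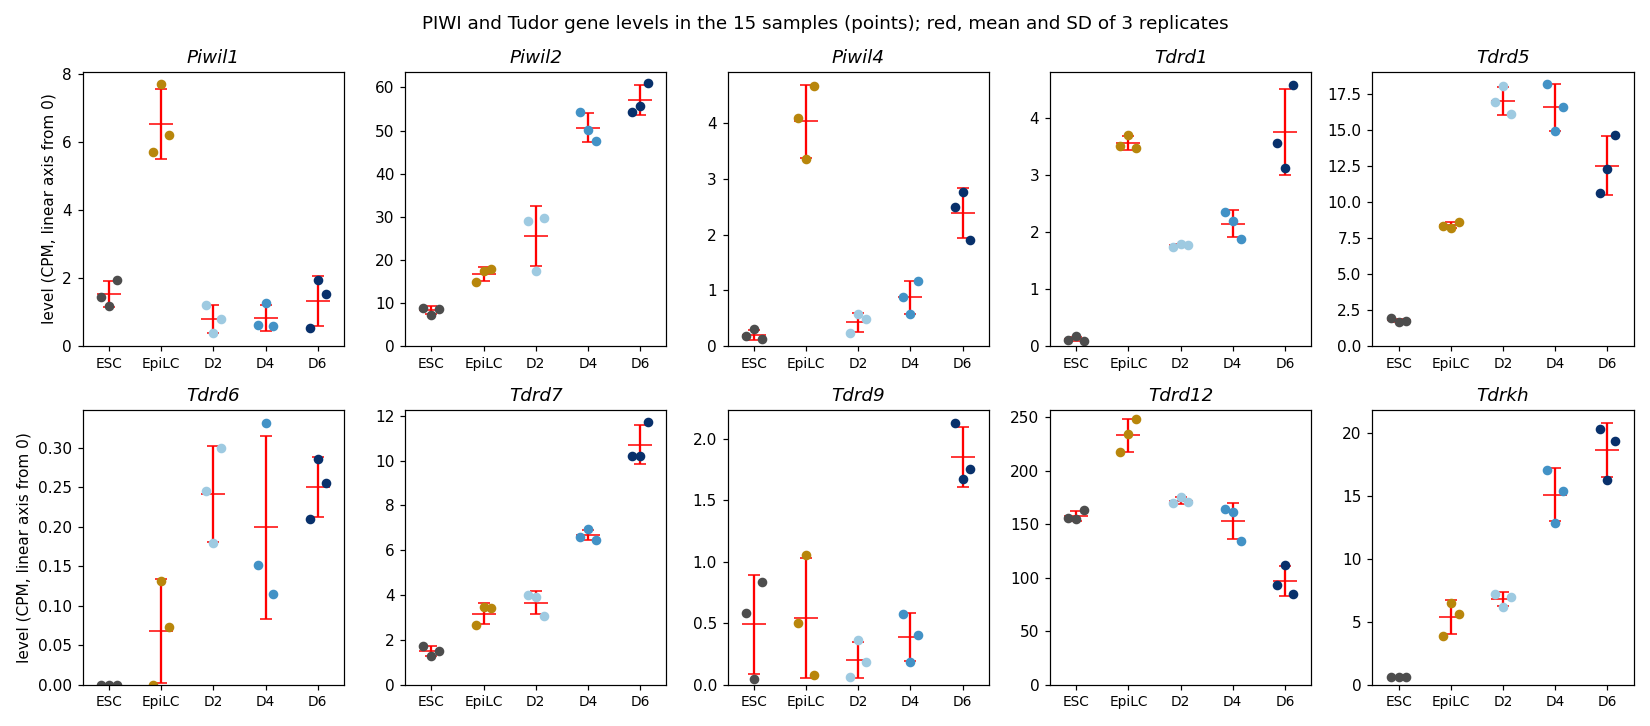
Level of each of the 10 genes in CPM (linear axis from 0, a separate scale for each gene) in the 3 replicates of ESC, EpiLC, D2PGCLC, D4PGCLC and D6PGCLC, with the mean and SD in red. *Piwil2* ascends from 8.32 CPM in ESC to 57.0 CPM in D6PGCLC, *Piwil1* stands highest in EpiLC at 6.53 CPM, and *Tdrd12* is lowest in D6PGCLC at 96.7 CPM.

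The promoters of these genes were read from RefSeq (GRCm38.p6), as windows of 250 bases before to 50 after each annotated start. Windows were found for 8 of the 10 genes, 14 in all, and none for *Piwil2* or *Tdrd6*. Of the 14, 11 held more CpG dinucleotides than the median of 7 over 32851 mouse promoters. Some genes had several windows, which overlapped in *Tdrd1* and *Tdrd12*, so the 14 are not independent. The window of *Tdrd5* had 48, more than 98.8% of all promoters. In each window 5 short motifs were searched on both strands, chosen after these windows had been looked at: the E-box CACGTG, the E2F core GGCGGGAA, the CCAAT box, the TATA box TATAAA and the GC box GGGCGG. The E-box was found in windows of 3 of the 8 genes (*Piwil1*, *Tdrd1* and *Tdrd9*), beside 7.15% of all promoters, though a gene can have several windows. CCAAT was found in 3 of 8, beside 37.4%, TATAAA in 3 of 8, beside 13.6%, GGGCGG in 4 of 8, beside 35.7%, and GGCGGGAA in none of the 8, beside 2.19%. One window with an E-box is printed for each of these 3 genes to show where the letters lie, and a second, overlapping window of *Tdrd1* that holds CACGTG once is not printed. *Piwil4* had no E-box in either of its 2 windows. The *Tdrkh* window is printed because this gene had the largest log2 fold change between D6PGCLC and ESC and its window held CCAAT 5 times. Each is written along the gene's strand, and a match is a description of letters, not of binding. Capitals mark CACGTG in the first 3 and, in *Tdrkh*, ATTGG, which is CCAAT on the other strand.
Piwil1, chr5:128735996-128736295, plus strand: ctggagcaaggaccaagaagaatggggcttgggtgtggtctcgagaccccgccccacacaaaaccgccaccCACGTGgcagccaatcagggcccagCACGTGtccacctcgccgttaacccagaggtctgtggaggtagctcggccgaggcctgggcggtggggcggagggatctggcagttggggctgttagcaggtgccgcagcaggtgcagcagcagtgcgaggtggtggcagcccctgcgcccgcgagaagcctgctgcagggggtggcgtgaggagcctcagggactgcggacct
Tdrd1, chr19:56825959-56826258, plus strand: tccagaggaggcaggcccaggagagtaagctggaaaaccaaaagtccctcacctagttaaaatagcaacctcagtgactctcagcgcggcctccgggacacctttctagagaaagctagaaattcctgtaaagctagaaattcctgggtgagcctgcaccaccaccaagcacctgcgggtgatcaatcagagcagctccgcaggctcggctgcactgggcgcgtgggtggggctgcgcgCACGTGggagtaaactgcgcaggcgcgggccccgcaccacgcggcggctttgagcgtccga
Tdrd9, chr12:111971309-111971608, plus strand: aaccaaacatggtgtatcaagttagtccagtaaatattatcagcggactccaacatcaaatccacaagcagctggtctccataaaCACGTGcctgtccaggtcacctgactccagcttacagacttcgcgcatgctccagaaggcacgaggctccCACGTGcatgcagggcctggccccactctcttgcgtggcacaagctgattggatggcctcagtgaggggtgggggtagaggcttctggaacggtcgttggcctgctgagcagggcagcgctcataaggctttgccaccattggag
Tdrkh, chr3:94412994-94413293, plus strand: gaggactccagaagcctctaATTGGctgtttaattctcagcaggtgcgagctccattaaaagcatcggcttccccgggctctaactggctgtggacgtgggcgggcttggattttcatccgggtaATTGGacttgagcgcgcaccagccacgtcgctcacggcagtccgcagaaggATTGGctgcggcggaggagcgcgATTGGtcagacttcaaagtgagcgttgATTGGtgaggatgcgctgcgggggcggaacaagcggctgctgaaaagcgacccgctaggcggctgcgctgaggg
The *Piwil1* window lies inside the GENCODE M21 gene, downstream of its first annotated base. *Piwil1* and *Tdrd9* held CACGTG 2 times each and *Tdrd1* once.

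*Piwil2* (ENSMUSG00000033644, chr14:70372477-70429383, minus strand), which encodes MILI, the cytoplasmic PIWI protein that cleaves transposon transcripts in fetal and postnatal male germ cells, had the most reads of the PIWI genes in all 15 libraries. The replicates held 8.98, 7.28 and 8.71 CPM in ESC, 14.9, 17.5 and 17.8 in EpiLC, 29.1, 17.5 and 29.8 in D2PGCLC, 54.3, 50.01 and 47.6 in D4PGCLC and 54.4, 55.7 and 60.9 in D6PGCLC. ESC, EpiLC and D4PGCLC libraries did not overlap, whereas D2PGCLC replicate 2 lay among the EpiLC libraries. The log2 fold change in D6PGCLC over ESC was 2.77 ± 0.16 (SE; 6.83-fold, adjusted p = 8.99e-11, edgeR), and over EpiLC it was 1.77 ± 0.15 (adjusted p = 1.60e-08). The steps were smaller. EpiLC exceeded ESC by 1.01 ± 0.16 on the log2 scale (adjusted p = 3.77e-05), a value that left the cutoff of 1 when ESC replicate 2 or EpiLC replicate 2 or 3 was omitted (0.92, 0.99 and 0.97) or no filter on low counts was used (0.995). D2PGCLC over EpiLC gave 0.61 ± 0.15 (adjusted p = 0.0026) and D4PGCLC over D2PGCLC 0.99 ± 0.15 (adjusted p = 0.000387), both past the adjusted p threshold and short of the fold cutoff. Without D2PGCLC replicate 1 or 3 or D4PGCLC replicate 3 the latter passed it, at 1.09, 1.12 and 1.03. D6PGCLC and D4PGCLC were not separated (0.17 ± 0.15, adjusted p = 0.48). The rise from D2PGCLC to D6PGCLC was 1.16 ± 0.15 (adjusted p = 1.05e-05), and 0.95 without D2PGCLC replicate 2.

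*Piwil4* (ENSMUSG00000036912, chr9:14696230-14740733, minus strand) encodes MIWI2, the PIWI protein that enters the nucleus of fetal male germ cells and directs DNA methylation of transposons. It was measured at 0.182, 0.307 and 0.134 CPM in ESC, which is 4 to 7 counts, then 4.09, 3.35 and 4.66 in EpiLC, 0.245, 0.573 and 0.480 in D2PGCLC, 0.879, 0.572 and 1.17 in D4PGCLC and 2.50, 2.77 and 1.90 in D6PGCLC. All EpiLC libraries lay above all others, and all D6PGCLC libraries lay above those of D4PGCLC. The gene rose from ESC to EpiLC by 4.29 ± 0.43 on the log2 scale (adjusted p = 1.12e-07), fell by 3.22 in D2PGCLC (SE 0.38, adjusted p = 1.10e-06) and rose again from D4PGCLC to D6PGCLC by 1.45 ± 0.35 (adjusted p = 0.0114). This last call was lost without D4PGCLC replicate 2 (1.21, adjusted p = 0.0595). From D2PGCLC to D6PGCLC the rise was 2.47 ± 0.38 (adjusted p = 6.48e-05). The D2PGCLC level behind the fall and this rise rested on 8, 16 and 16 counts. D6PGCLC remained 0.75 below EpiLC on the log2 scale, with an adjusted p of 0.0599 that missed the threshold.

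*Piwil1* (ENSMUSG00000029423, chr5:128702524-128755474, plus strand) encodes MIWI, the PIWI protein of meiotic and post-meiotic male germ cells. Its level was 1.46, 1.18 and 1.94 CPM in ESC, 5.70, 7.70 and 6.20 in EpiLC, 1.23, 0.394 and 0.810 in D2PGCLC, 0.637, 1.27 and 0.601 in D4PGCLC and 0.526, 1.96 and 1.53 in D6PGCLC. The EpiLC libraries stood above the other 12, and the ranges of the remaining 4 groups overlapped. *Piwil1* was higher in EpiLC than in ESC by 2.08 ± 0.43 on the log2 scale (adjusted p = 0.000427) and fell by 2.99 in D2PGCLC (SE 0.45, adjusted p = 1.60e-05). The differences between D4PGCLC and D2PGCLC (0.03 ± 0.47, adjusted p = 0.984), between D6PGCLC and D4PGCLC (0.69 ± 0.44, adjusted p = 0.334) and between D6PGCLC and ESC (-0.19 ± 0.43, adjusted p = 0.728) missed the threshold with wide errors. D6PGCLC replicate 1 had the lowest of the 3 D6PGCLC values, and without it the log2 fold change over D2PGCLC went from 0.72 (adjusted p = 0.223) to 1.10 (adjusted p = 0.0394).

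Set on 1 scale by dividing CPM by exon length (CPM per kb), the 3 PIWI genes summed to 1.96 ± 0.23 in ESC, 5.42 ± 0.46 in EpiLC, 5.09 ± 1.37 in D2PGCLC, 9.93 ± 0.61 in D4PGCLC and 11.5 ± 0.68 in D6PGCLC (mean ± SD, n = 3). The summed level was thus close in EpiLC and D2PGCLC while its make-up was not. *Piwil2* gave 57.7 to 59.6% of the sum in EpiLC and 94.4 to 95.4% in D2PGCLC, and *Piwil1* gave 25.1 to 31.0% in EpiLC and at most 4.82% in any PGCLC library. *Piwil4* contributed 10.9 to 15.5% in EpiLC and 2.89 to 4.48% in D6PGCLC. These shares depend on the length used. With the longest transcript as the length, *Piwil4* was at 1.22 CPM per kb in EpiLC in place of 0.75. *Piwil2* was at 3.41 in place of 3.17, so the share of *Piwil4* would be larger.

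**Figure D2:**
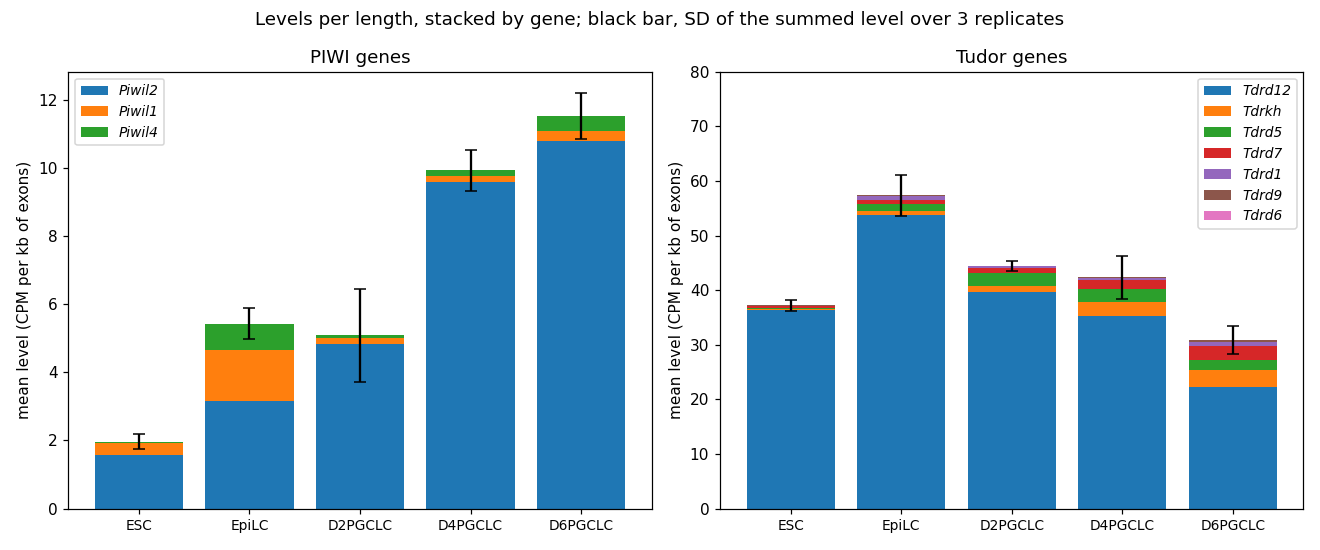
Mean level per length (CPM per kb of exons, linear axis from 0) of the 3 PIWI genes (left) and the 7 Tudor genes (right), stacked by gene for the 5 groups, with a black bar for the SD of the summed level over 3 replicates. *Piwil2* makes up most of the PIWI bar in each group, with the smallest share in EpiLC, and *Tdrd12* makes up most of the Tudor bar, with a mean share of 97.7% in ESC and 71.9% in D6PGCLC.

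*Tdrkh* (ENSMUSG00000041912, chr3:94413273-94434668, plus strand), the mitochondrial Tudor protein that helps trim piRNA precursors to length, went from 0.584, 0.614 and 0.570 CPM in ESC to 3.87, 6.51 and 5.65 in EpiLC, 7.23, 6.16 and 6.96 in D2PGCLC, 17.0, 12.9 and 15.4 in D4PGCLC and 20.4, 16.3 and 19.4 in D6PGCLC. The ESC libraries were separated from all others, EpiLC and D2PGCLC overlapped, and D4PGCLC and D6PGCLC overlapped. D6PGCLC exceeded ESC by 4.98 ± 0.23 on the log2 scale (31.6-fold, adjusted p = 3.58e-12), the largest of the 9 tested members. The rise fell into a first step from ESC to EpiLC (3.18 ± 0.23, adjusted p = 1.58e-09) and a second from D2PGCLC to D4PGCLC (1.15 ± 0.17, adjusted p = 0.000372). Between them D2PGCLC and EpiLC were not separated (0.34 ± 0.18, adjusted p = 0.117), nor D6PGCLC and D4PGCLC (0.31 ± 0.17, adjusted p = 0.247). The exons of *Tdrkh* overlap those of *Oaz3* on the other strand, which had at most 5 counts in a library.

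*Tdrd1* (ENSMUSG00000025081, chr19:56826209-56870012, plus strand) encodes a Tudor protein that binds MILI and scaffolds it in the granules between mitochondria. In ESC it had 3, 4 and 3 counts, equal to 0.110, 0.175 and 0.101 CPM. The levels were 3.52, 3.72 and 3.49 CPM in EpiLC, 1.75, 1.79 and 1.77 in D2PGCLC, 2.37, 2.20 and 1.89 in D4PGCLC and 3.57, 3.13 and 4.59 in D6PGCLC. EpiLC and D6PGCLC overlapped and D2PGCLC lay in a narrow band between them and ESC. The log2 fold change in EpiLC over ESC was 4.79 ± 0.34 (adjusted p = 8.51e-10), resting on the few counts in ESC. *Tdrd1* then fell by 1.01 in D2PGCLC (adjusted p = 0.00166), a value at the cutoff that was not called without EpiLC replicate 2 or D2PGCLC replicate 1 (-0.98 and -0.999) or without the filter on low counts (-0.99). It rose by 1.08 ± 0.24 from D2PGCLC to D6PGCLC (adjusted p = 0.00164; 0.92 without D6PGCLC replicate 3), to a level 0.07 above that of EpiLC on the log2 scale (adjusted p = 0.809).

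*Tdrd9* (ENSMUSG00000054003, chr12:111971559-112068854, plus strand), a helicase with a Tudor domain that works with MIWI2, had 16, 1 and 25 counts in ESC, 13, 32 and 2 in EpiLC, 2, 10 and 6 in D2PGCLC, 19, 6 and 14 in D4PGCLC and 81, 76 and 62 in D6PGCLC. The 3 D6PGCLC libraries, at 2.13, 1.67 and 1.76 CPM, lay above the other 12, in which replicates of a group differed widely. D6PGCLC exceeded D2PGCLC by 3.22 ± 0.81 on the log2 scale (adjusted p = 0.00443). Over ESC (1.88 ± 0.74, adjusted p = 0.0394) and EpiLC (1.75 ± 0.73, adjusted p = 0.0483) the calls were near the threshold. Each was lost in 5 of the 6 fits that left out 1 library of the pair, all but those without ESC replicate 3 and without EpiLC replicate 2, with adjusted p-values of up to 0.131 without ESC replicate 2 and up to 0.160 without EpiLC replicate 3, and the EpiLC call was also lost with DESeq2 (adjusted p = 0.0510) and its size factors (0.0523). The step from D4PGCLC was 2.25, with an adjusted p of 0.0546, against 0.0248 with DESeq2, 0.00263 without the filter and 0.0211 with only the 2 groups fitted.

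*Tdrd5*, *Tdrd6* and *Tdrd7* encode Tudor proteins of the germ cell granules, which in spermatids form the chromatoid body. *Tdrd7* (ENSMUSG00000035517, chr4:45965334-46034761, plus strand) was measured at 1.72, 1.27 and 1.47 CPM in ESC, 2.64, 3.45 and 3.41 in EpiLC, 4.01, 3.91 and 3.06 in D2PGCLC, 6.61, 6.93 and 6.47 in D4PGCLC and 10.2, 10.2 and 11.7 in D6PGCLC. Only EpiLC and D2PGCLC overlapped. The rise over ESC was 1.09 ± 0.20 in EpiLC (adjusted p = 0.000169; 0.99 without ESC replicate 2) and 2.84 ± 0.20 in D6PGCLC (7.16-fold, adjusted p = 8.94e-10). D4PGCLC exceeded D2PGCLC by 0.87 (adjusted p = 0.00444) and D6PGCLC exceeded D4PGCLC by 0.68 (adjusted p = 0.0147), each short of the fold cutoff, and the 2 steps together passed it (1.55 ± 0.18, adjusted p = 3.46e-06).

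*Tdrd5* (ENSMUSG00000060985, chr1:156255296-156303664, minus strand) took another course, with 1.93, 1.71 and 1.74 CPM in ESC, 8.30, 8.22 and 8.62 in EpiLC, 16.9, 18.0 and 16.1 in D2PGCLC, 18.2, 14.9 and 16.6 in D4PGCLC and 10.6, 12.3 and 14.6 in D6PGCLC. Every PGCLC library lay above every EpiLC library, and D6PGCLC lay below D2PGCLC without overlap. It rose over ESC in EpiLC (2.22 ± 0.16, adjusted p = 1.25e-09) and again from EpiLC to D2PGCLC (1.02 ± 0.14, adjusted p = 5.45e-06), the second close to the cutoff at 0.98 without D2PGCLC replicate 2 and 0.97 with DESeq2 or its size factors. D4PGCLC and D2PGCLC were not separated (-0.04 ± 0.13, adjusted p = 0.903). D6PGCLC was 0.44 below D2PGCLC on the log2 scale (adjusted p = 0.0146), short of the fold cutoff. *Tdrd6* (ENSMUSG00000040140, chr17:43615335-43630299, minus strand) had no count in the 3 ESC libraries, 0, 4 and 2 in EpiLC, 8, 5 and 10 in D2PGCLC, 5, 11 and 4 in D4PGCLC and 8, 13 and 9 in D6PGCLC. The D6PGCLC mean of 0.251 CPM was 2.20 times 0.114 CPM, the mean level that 3 counts per library would give in ESC. The gene fell under the filter on low counts. In the edgeR fit without that filter, D6PGCLC over ESC was 6.02 on the log2 scale (adjusted p = 0.00319). The size of this value rests on the lack of counts in ESC.

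*Tdrd12* (ENSMUSG00000030491, chr7:35469098-35537745, minus strand), a Tudor protein with a helicase domain that is needed to make the piRNAs loaded on MIWI2, had levels above the other 9 genes in each library, per length as well. It was at 155.3, 155.2 and 162.8 CPM in ESC, 217.3, 234.0 and 247.9 in EpiLC, 169.4, 175.8 and 170.4 in D2PGCLC, 164.2, 161.6 and 134.0 in D4PGCLC and 92.7, 112.2 and 85.1 in D6PGCLC. The 3 EpiLC libraries were above and the 3 D6PGCLC libraries below all the rest. D6PGCLC fell by 1.27 on the log2 scale relative to EpiLC (SE 0.098, adjusted p = 3.09e-09). The other differences passed the adjusted p threshold but not the fold cutoff, at 0.56 for EpiLC over ESC (adjusted p = 7.54e-05), -0.44 for D2PGCLC over EpiLC (adjusted p = 0.00081), -0.66 for D6PGCLC over D4PGCLC (adjusted p = 0.000255), -0.83 for D6PGCLC over D2PGCLC (adjusted p = 3.68e-06) and -0.71 for D6PGCLC over ESC (adjusted p = 6.23e-06), except D4PGCLC over D2PGCLC (-0.17, adjusted p = 0.299). An intronic pseudogene on the same strand, *Gm18558*, had 22 to 93 counts, against at least 3003 for *Tdrd12*.

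Per length the 7 Tudor genes summed to 37.2 ± 1.05 CPM per kb in ESC, 57.4 ± 3.79 in EpiLC, 44.5 ± 0.90 in D2PGCLC, 42.4 ± 3.99 in D4PGCLC and 30.9 ± 2.53 in D6PGCLC (mean ± SD, n = 3). The sum followed *Tdrd12*, whose share went from 97.5 to 98.1% in ESC to 67.5 to 76.6% in D6PGCLC. Over the same groups the share of *Tdrkh* went from at most 0.274% to 7.84 to 11.1% and that of *Tdrd7* from at most 1.18% to 7.64 to 10.2%. In D6PGCLC the order of mean levels per kb was *Tdrd12* (22.3), *Piwil2* (10.8), *Tdrkh* (3.04), *Tdrd7* (2.71), *Tdrd5* (1.80), *Tdrd1* (0.69), *Piwil4* (0.44), *Tdrd9* (0.34), *Piwil1* (0.31) and *Tdrd6* (0.035). With the longest transcript as the length, *Tdrd5* was at 3.32 and stood above *Tdrkh* at 3.28, and *Piwil4* was at 0.723, near *Tdrd1* at 0.726.

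Across the 9 genes tested, 7 were called higher and 0 lower in EpiLC than in ESC (adjusted p under 0.05 and past 1 on the log2 scale), beside 14.4% of 18090 genes called higher and 11.9% lower. The 7 were *Tdrd1*, *Piwil4*, *Tdrkh*, *Tdrd5*, *Piwil1*, *Tdrd7* and *Piwil2*, and the median log2 fold change of the 9 was 2.08, against -0.01 for all genes. From EpiLC to D2PGCLC 1 rose (*Tdrd5*) and 3 fell (*Piwil4*, *Piwil1* and *Tdrd1*), beside 11.0% higher and 14.4% lower, with a median of -0.44. Markers of other cells differed between the same groups. The summed level of 6 fibroblast markers was 9.87 to 13.6 CPM in EpiLC and at most 2.85 elsewhere, with *Lum* at 0 in EpiLC and *Dcn* at 0 in ESC, D4PGCLC and D6PGCLC, and that of 3 neural markers was 11.1 to 15.8 CPM in EpiLC and at most 10.5 elsewhere. The neural sum was carried by *Neurod1* (8.66 CPM in EpiLC), whereas *Sox1* was lower in EpiLC (1.07 CPM) than in ESC (1.81 CPM) and *Pax6* was lower in EpiLC (3.01 CPM) than in the PGCLCs (4.27 to 8.71 CPM). The 3 mesoderm markers summed to 14.8 to 15.8 CPM in ESC, nearly all of it *T* (14.8 CPM), and to at most 0.66 CPM in any other group. The 4 endoderm markers summed to 5.07 to 6.36 CPM in ESC, 2.60 to 2.90 CPM in EpiLC and 0.69 to 1.15 CPM in D2PGCLC. Their part in the member levels was not tested.

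Within PGCLCs, 1 member was called higher and 0 lower from D2PGCLC to D4PGCLC (*Tdrkh*), beside 2.56% and 0.376% of all genes, and 1 higher and 0 lower from D4PGCLC to D6PGCLC (*Piwil4*), beside 2.29% and 0.785%. Over both steps, D6PGCLC against D2PGCLC, 6 were higher and 0 lower (*Tdrd9*, *Piwil4*, *Tdrd7*, *Tdrkh*, *Piwil2* and *Tdrd1*), beside 10.9% and 2.75%, with a median of 1.16 against 0.00 for all genes. Without D6PGCLC replicate 1, the library with the fewest genes detected, *Piwil1* was added and the count was 7. The 4 endoderm markers summed to 9.03 to 16.9 CPM in D6PGCLC, and to at most 6.36 CPM elsewhere. *Gata6* gave most of that sum (9.25 CPM, up from 1.81 CPM in D4PGCLC), while *Gata4* (1.94 CPM) was below its ESC level of 4.35 CPM, *Sox17* was at 1.28 CPM and *Foxa2* was at 0.026 CPM, against 0.131 CPM in D4PGCLC. The part of these markers in the member levels was not tested.

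D6PGCLC had 4 members higher (*Tdrkh*, *Piwil2*, *Tdrd7* and *Tdrd9*) and 2 lower (*Piwil1* and *Tdrd12*) than EpiLC, beside 15.9% and 12.0% of all genes, with a median of 0.57 against 0.03. Against ESC 7 were higher and 0 lower, beside 15.8% and 10.3%, with a median of 2.79 against 0.00. These 7 were *Tdrkh*, *Tdrd1* (4.86 ± 0.34, adjusted p = 8.30e-10), *Piwil4* (3.54 ± 0.43, adjusted p = 1.39e-06), *Tdrd7*, *Tdrd5* (2.79 ± 0.16, adjusted p = 5.82e-11), *Piwil2* and *Tdrd9*, whose call is the one near the threshold. The mesoderm marker *T* fell over the same pair of groups, from 14.8 CPM in ESC to 0.024 CPM in D6PGCLC, and its part was not tested. The comparisons with a group in common are not independent of each other. *Tdrd1*, *Piwil4* and *Tdrd9* had fewer than 10 counts in at least 1 library of their low groups. *Tdrd1* and *Piwil4* passed the filter through the groups in which they were high. *Tdrd9* also had more than 10 counts in libraries outside D6PGCLC, such as 16 and 25 in ESC. The counts of members are therefore descriptions. Where edgeR called 0 members lower, DESeq2 also called 0, and at an unadjusted p under 0.05 the lower members numbered 0 in EpiLC against ESC and in D4PGCLC against D2PGCLC, 2 in D6PGCLC against D4PGCLC and against D2PGCLC, and 1 against ESC. Of these 1, 2 and 1 also passed the adjusted p threshold and were short of the fold cutoff. The shares of all genes past a p threshold alone are not given here, so these numbers are not read as few or many.

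**Figure D3:**
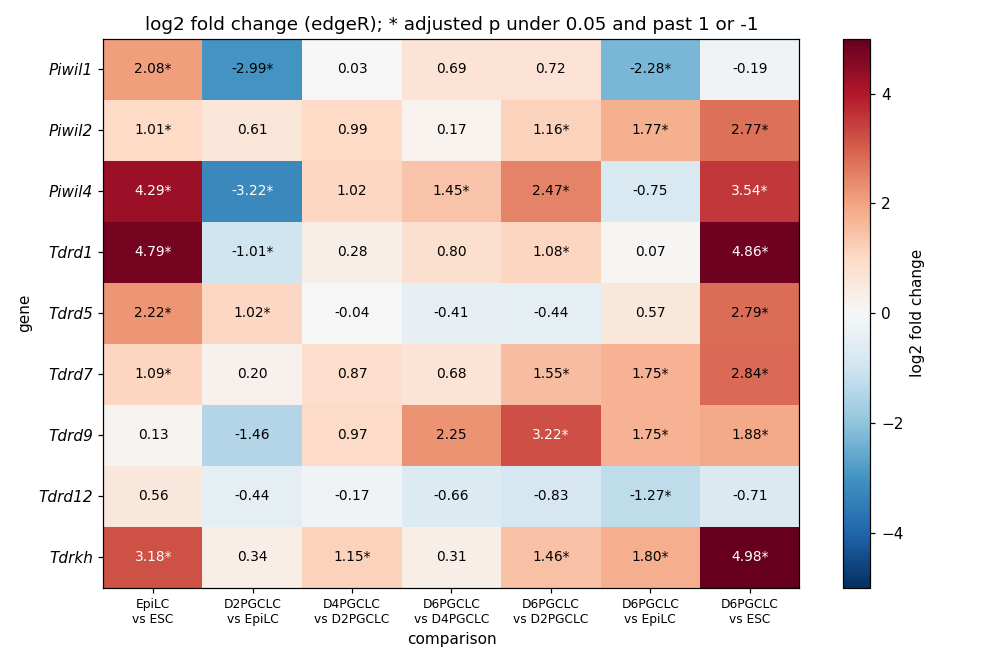
Fitted log2 fold change (colour and number) of the 9 tested genes in the 7 comparisons between groups, with an asterisk for an adjusted p under 0.05 and a value past 1 or -1. The columns for EpiLC against ESC and D6PGCLC against ESC hold 7 calls each, and *Piwil1*, *Piwil4* and *Tdrd1* have the 3 negative calls in the column for D2PGCLC against EpiLC.

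Partners of these proteins were described from a list of 19 genes, of which 18 were tested (*Spocd1* was not). In EpiLC over ESC 5 were higher and 1 lower (27.8% and 5.56% of the 18), beside 14.4% and 11.9% of all genes. At the top stood *Mael*, a granule protein needed for transposon silencing (4.66, adjusted p = 1.79e-10), and at the bottom *Mybl1*, a transcription factor of pachytene piRNA loci (-1.34, adjusted p = 5.21e-07). The list had 1 higher and 2 lower in D2PGCLC over EpiLC (5.56% and 11.1%), below the 11.0% and 14.4% of all genes, from *Btbd18* (1.78) to *Dnmt3l* (-2.21), the cofactor of de novo DNA methyltransferases. D4PGCLC over D2PGCLC gave 5 higher (27.8%, beside 2.56%) and 0 lower, led by *Asz1*, a mitochondrial piRNA factor (2.53, adjusted p = 0.000374), and D6PGCLC over D4PGCLC gave 2 higher (11.1%, beside 2.29%) and 0 lower, led by *Gtsf1* (1.31, adjusted p = 0.00575), a PIWI cofactor. By D6PGCLC 10 of the 18 were higher and 1 lower than in EpiLC (55.6% and 5.56%, beside 15.9% and 12.0%), between *Btbd18* (3.98, adjusted p = 6.25e-10) and *Dnmt3l* (-1.71, adjusted p = 1.07e-05). Against ESC 7 were higher (38.9%, beside 15.8%) and 0 lower, between *Mael* (5.30, adjusted p = 3.64e-11) and *Morc1* (-0.77, short of the cutoff), with a list median of 0.90 beside 2.79 for the 9 members.

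A further list held 8 Tudor genes with roles outside or beside the pathway, of which 7 were tested. None was called by edgeR between successive stages or between D6PGCLC and D2PGCLC, with log2 differences short of the fold cutoff. In EpiLC over ESC 14.4% of all genes were called higher and 11.9% lower, and in D2PGCLC over EpiLC 11.0% and 14.4%. The shares were 2.56% and 0.376% in D4PGCLC over D2PGCLC and 2.29% and 0.785% in D6PGCLC over D4PGCLC. In D6PGCLC over D2PGCLC they were 10.9% and 2.75%. With 7 genes, 0 called is not read as a trait of the list. Most passed the adjusted p threshold in EpiLC against ESC (4 higher and 2 lower, such as *Rnf17* at 0.74, adjusted p = 7.72e-06, and *Akap1* at -0.65, adjusted p = 5.25e-07) and in D2PGCLC against EpiLC (3 higher and 2 lower). Among PGCLCs 1 higher and 1 lower did so in D4PGCLC against D2PGCLC, 1 and 2 in D6PGCLC against D2PGCLC, and 0 and 0 in D6PGCLC against D4PGCLC, where 2 and 1 had an unadjusted p under 0.05. The shares of all genes past a p threshold alone are not given here, so these numbers are not read as many or few. With the fold cutoff, 1 of the 7 was called higher in D6PGCLC than in EpiLC (14.3%, beside 15.9% of all genes). Against ESC 2 were called higher (28.6%, beside 15.8%). *Stk31*, a Tudor kinase-like gene of germ cells, was higher in D6PGCLC than in EpiLC (1.45, adjusted p = 8.09e-08) and ESC (2.05, adjusted p = 1.56e-09), and *Rnf17* was higher than in ESC (1.06, adjusted p = 9.41e-08). At the other end *Smn1*, of the splicing machinery, was 0.67 lower than in ESC on the log2 scale, short of the cutoff. Of the 4 genes of the AGO branch, which bind microRNAs, *Ago4* alone was called in any of the 7 comparisons. It was lower in EpiLC than in ESC (-1.96, adjusted p = 0.00329) and higher in D6PGCLC than in EpiLC (3.28, adjusted p = 1.56e-05) and ESC (1.33, adjusted p = 0.0146). Relative to D2PGCLC it was higher in D4PGCLC (2.01, adjusted p = 0.00915) and D6PGCLC (2.71, adjusted p = 0.000186). These values rest on few reads, with 4 to 17 counts of *Ago4* in the EpiLC libraries and 9 to 24 in those of D2PGCLC.

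**Figure D4:**
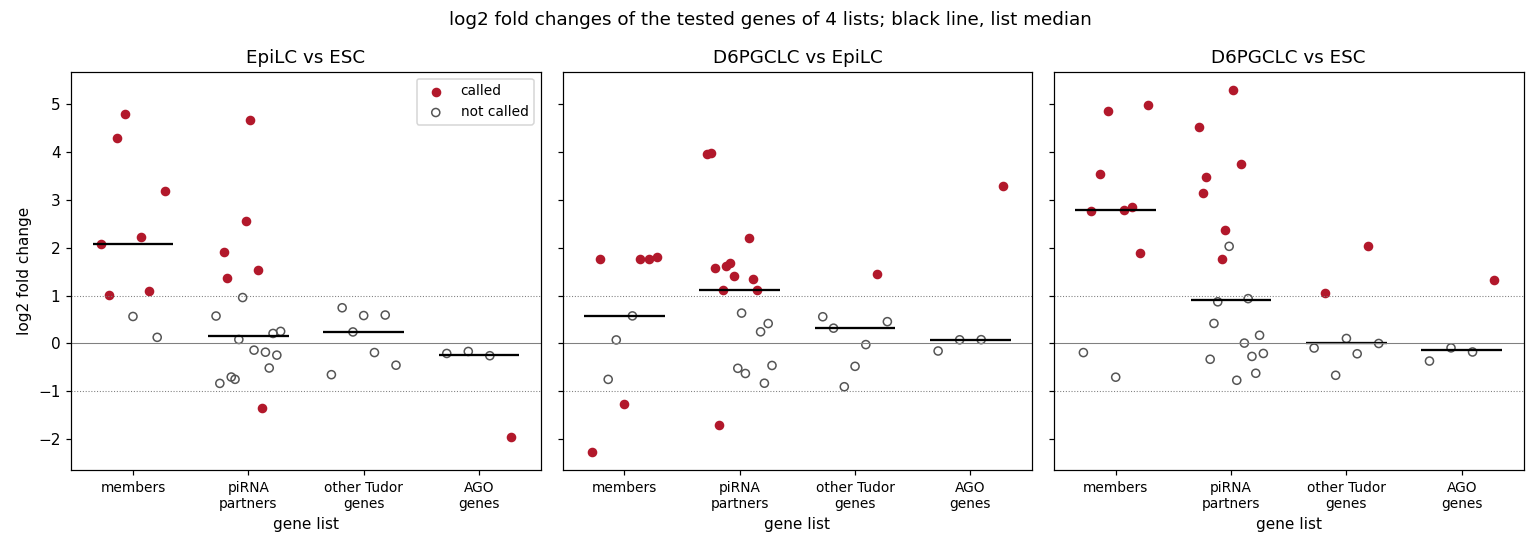
Fitted log2 fold change of the tested genes (points; filled, called) of 4 lists, namely the 9 members, 18 piRNA pathway partners, 7 other Tudor genes and 4 AGO genes, in 3 comparisons, with a black line at each list's median. In D6PGCLC against ESC the median is 2.79 for the members, 0.90 for the partners and 0.00 for the other Tudor genes.

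*Piwil2* had a profile close to that of several genes outside the 10. By Pearson correlation of log2(CPM + 1) over the 15 samples, which share their 5 groups and are not independent, the 5 closest of the 18090 genes were *Pde3a* (r = 0.988), *Ptpdc1* (0.983), *Trappc10* (0.983), *Mov10l1* (0.980) and *Tsnax* (0.977). *Mov10l1*, a helicase that binds piRNA precursors, is on the partner list, and its mean level went from 2.73 CPM in ESC to 36.3 in D6PGCLC. Among the members *Tdrkh* (r = 0.966, rank 18) and *Tdrd7* (r = 0.952, rank 45) were closest to *Piwil2*, while *Piwil1* (r = -0.35) and *Tdrd12* (r = -0.56) were negative. The same 5 genes led when 4 was added to CPM in place of 1.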

How the data were processed

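The authors sequenced stranded libraries (NEBNext Ultra II Directional) of TRIzol RNA, and the submitters' processing notes name Trim Galore, FastQC, STAR and mm10. The deposited values are raw counts per ENSEMBL gene. The counting tool, annotation release, use of strand and treatment of multi-mapped reads are not given in the sources used here. Symbols, positions and exon lengths came from GENCODE M21, which held all 55536 identifiers.

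Counts were tested with edgeR 4.0.16 (R 4.3.3), with TMM factors, filterByExpr (minimum count 10), 1 quasi-likelihood model that held every sample and gave each group its own coefficient, and p-values adjusted by Benjamini-Hochberg over 18090 genes. The code was tested on simulated data. CPM are counts divided by the TMM-scaled library size in units of 1000000 counts, and 3 counts are at most 0.132 CPM. That floor covers counting error only. The study's methods name DESeq2, used here (1.42.0) as an alternative. The members, lists and motifs were chosen with earlier results of these data known. Named genes were all members, the highest and lowest of each list, and the 5 genes most correlated with *Piwil2*; other called genes named were chosen after their values were seen.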

Additional observations from a re-analysis of the deposited data

How the results depend on the processing

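The 14 counts of called members (7 comparisons, higher and lower) were recomputed under 6 alternatives, and 72 of the 84 values stayed within 1.5 times. The 72 include lower counts of 0 that stayed at 0. The 12 values that moved were as follows. From EpiLC to D2PGCLC the members called higher numbered 0 with DESeq2 and with DESeq2 size factors in edgeR, and 2 without the fold cutoff. From D2PGCLC to D4PGCLC they numbered 2 with the replicate block and 3 without the cutoff. From D4PGCLC to D6PGCLC they numbered 2 with DESeq2, without the filter and with only the 2 groups fitted, and 3 without the cutoff. Without the cutoff, members called lower numbered 2 in D6PGCLC against D2PGCLC, 1 against D4PGCLC and 1 against ESC. The cause of the changes with DESeq2 was not tested.

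With each library left out in turn, the higher counts ran over 5 to 7 (EpiLC against ESC), 0 to 1 (D2PGCLC against EpiLC; 0 without D2PGCLC replicate 2), 1 to 2 (D4PGCLC against D2PGCLC; 2 without D2PGCLC replicate 1 or 3 or D4PGCLC replicate 3), 0 to 1 (D6PGCLC against D4PGCLC; 0 without D4PGCLC replicate 2), 5 to 7 (D6PGCLC against D2PGCLC), 3 to 4 (against EpiLC) and 6 to 7 (against ESC). The lower counts ran over 2 to 4 from EpiLC to D2PGCLC, 4 without EpiLC replicate 3, when *Tdrd9* was added (-1.97, adjusted p = 0.0491). Log2 fold changes that changed sign were all uncalled. They were *Tdrd9* in EpiLC against ESC (-0.80 to 0.75), *Piwil1* in D4PGCLC against D2PGCLC (-0.40 to 0.45) and D6PGCLC against ESC (-0.59 to 0.20), *Tdrd5* in D4PGCLC against D2PGCLC (-0.11 to 0.030) and *Tdrd1* in D6PGCLC against EpiLC (-0.090 to 0.19).

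Whether the replicate numbers pair the samples was not settled. The mean correlation of deviations was 0.0703 over 30 same-numbered pairs, of which 8 were over 0.1. Over the 60 other pairs it was -0.0352, and 4 were over 0.1. The deviations were taken from group means and cancel within a group. The mean of the other pairs is therefore tied to the first mean and is no separate baseline. With the replicate block *Piwil1* in D4PGCLC against D2PGCLC was -0.039, *Piwil2* there was called (1.01), and *Tdrd9* lost its calls in D6PGCLC against EpiLC (adjusted p = 0.0617) and ESC (adjusted p = 0.0532). Depth limited *Tdrd6*, *Tdrd9* and, in ESC, *Tdrd1* and *Piwil4*, which had few counts. *Piwil4* had few in D2PGCLC as well.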
